A study of Mus musculus with 16 samples.

Results

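The interaction of maternal and offspring diet was examined in the tibialis anterior, a fast muscle of the lower leg, of mouse offspring. The question was whether the muscle's response to calorie restriction depended on undernutrition before birth. All 16 of 16 arrays entered the contrast, which was taken from the sample titles. The response to calorie restriction was computed in the offspring of undernourished dams, and the same response in the offspring of control dams was subtracted from it. A positive interaction therefore means that a transcript changed more in the upward direction under restriction after fetal undernutrition.

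The dams of the undernourished groups received 50% less food in week 3 of gestation, and the dams of the control groups did not. The offspring of both kinds of dam were fed ad libitum (AL) or were calorie restricted (CR). The 4 groups, each with 4 arrays, are named here by the dam's diet and then the offspring's: control AL and control CR, and likewise undernourished AL and undernourished CR. Each group had 8 mice whose muscles were pooled in pairs, so that 1 array stands for 2 mice. The labels do not give the strain, sex, age or degree and length of the offspring's restriction. They do not say which mice share a litter either, and maternal diet was given to dams, so the p-values measure the spread between these pools.

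Calorie restriction lowers energy intake without malnutrition, and muscle responds with shifts in the use of fat and glucose, in protein breakdown and in the circadian clock, whose phase follows feeding time. Undernutrition late in gestation lowers birth weight and is known for lasting effects on insulin action and muscle mass. An interaction asks whether the earlier shortage alters the later response.

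The arrays carried muscle transcripts throughout: all 20 skeletal muscle markers were measured, and their summed signal ranged from 7146 to 12005.5 units over the 16 arrays, where 1 unit is an array's 75th percentile. Transcripts of other tissues stood out on AL arrays, those of brain in both maternal groups and those of skin in control AL. Summed brain markers were at 352, 265.5, 86.4 and 74.9 in control AL, from 51.9 to 98.7 in undernourished AL and from 43.2 to 60.3 on the CR arrays. The median log2 level of these markers ran from -1.07 to 1.82 in control AL and from -2.21 to -0.48 in undernourished AL. It ran from -4.65 to -4.38 in control CR and from -4.59 to -3.92 in undernourished CR. Summed skin markers were at 36.8, 80.6, 30.1 and 3.62 in control AL and between 3.29 and 7.60 on the other 12 arrays. Control AL enters the interaction with full weight, so values are also given with indices of both tissues as covariates, or without these arrays. Each of the 4 slides held 2 control and 2 undernourished arrays of 1 offspring diet. Slides 1 and 2 (AL) and slides 3 and 4 (CR) were scanned on different days, so scan day and offspring diet cannot be told apart. The interaction also equals the maternal difference on the CR slides minus that on the AL slides, and both are measured within slides.

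**Figure D1:**
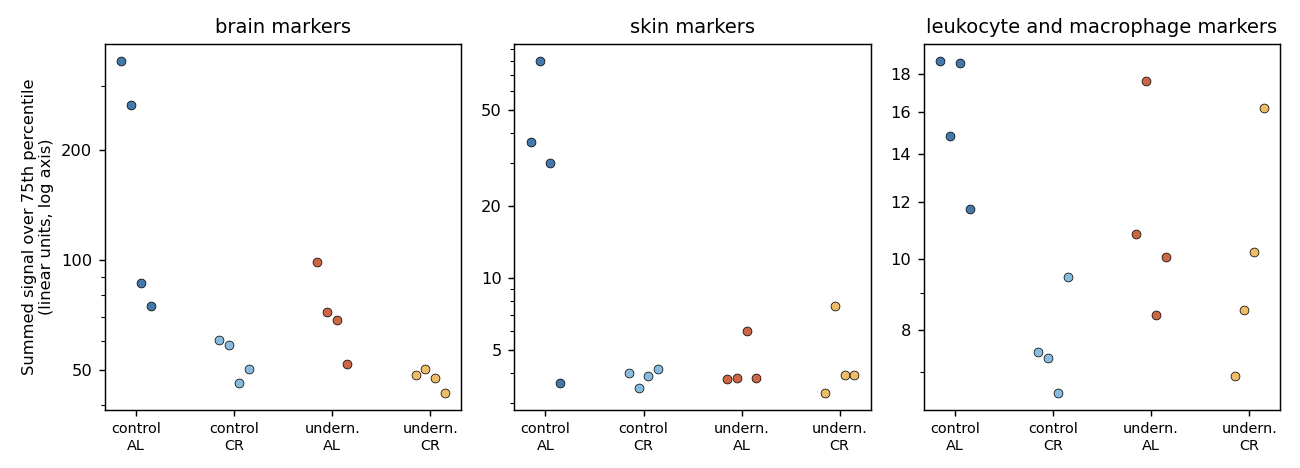
Summed signal of brain, skin, and leukocyte and macrophage markers on each of the 16 arrays, in units of the array's 75th percentile on a log axis, by group and in replicate order. Brain and skin markers were highest on control AL arrays, with 352 units of brain markers in replicate 1 and 80.6 units of skin markers in replicate 2.

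The restriction responses of both kinds of offspring correlated across genes, and 1 gene of 24828 passed the test of a difference between them. That was Sptlc3, a subunit of serine palmitoyltransferase, the enzyme of the first step of sphingolipid synthesis, which had a higher response after maternal undernutrition. The background rate of calls was thus 0.00403% (limma, Benjamini-Hochberg adjusted p under 0.05), with 0 genes called lower. The next smallest adjusted p was 0.172. With slide as a block limma called 12 genes, 10 higher and 2 lower; of those named here these were Sptlc3 and Krt76. At an unadjusted p under 0.05 limma found 2397 genes (9.65%), 1335 of them higher (5.38%) and 1062 lower (4.28%).

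Many genes differed between CR and AL in each kind of offspring, a difference that scan day shares. Limma called 8008 genes (32.3%) between CR and AL in control offspring, 17.2% higher and 15.1% lower, and 5039 (20.3%) in undernourished offspring, 10.4% higher and 9.86% lower. In both, 3611 genes (14.5%) were called in the same direction and 7 (0.0282%) in opposite directions. These counts do not test a difference. Across the 24828 genes the 2 responses, which share no array, correlated with r = 0.82, a description over genes that share labelling, slides and scan days and that include the brain transcripts, which were lower on CR arrays of both. The maternal groups differed for 8 genes (0.0322%) within AL in limma and for 0 (0%) within CR, where 715 genes (2.88%) had an unadjusted p under 0.05.

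**Figure D2:**
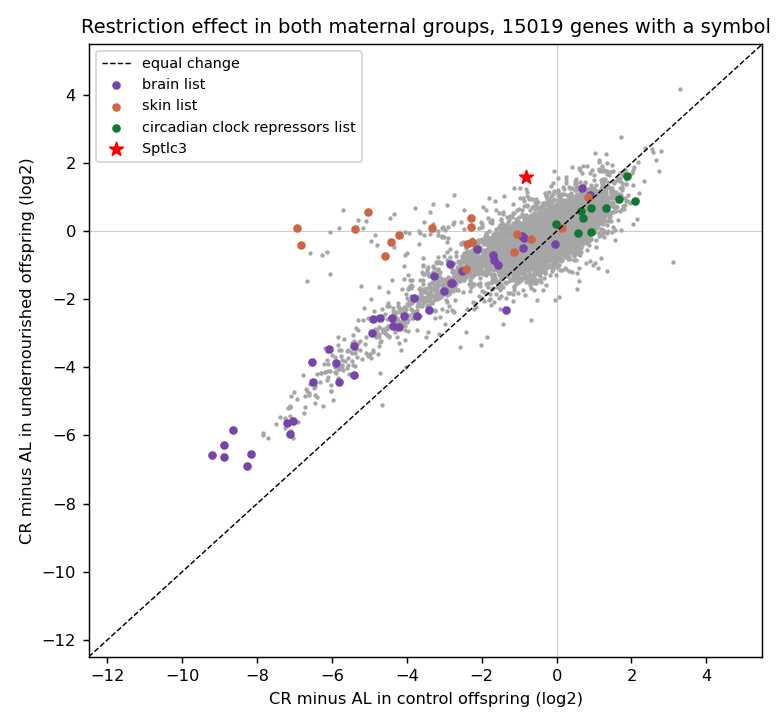
Difference of CR minus AL (log2) in control offspring against the same in undernourished offspring, 1 point for each of the 15019 tested genes with a symbol, with the brain, skin and clock repressor lists and Sptlc3 coloured and a line of equal change. Most skin and brain markers lie above the line: the skin median was -2.41 in control and -0.10 in undernourished offspring, and the brain median -4.21 and -2.55.

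The size of an interaction that these arrays could show varied between genes. The 95% interval reached a median of 0.60 log2 units to each side of the estimate, a 1.52-fold difference in response. For 14499 genes (58.4%) the whole interval lay within 1 log2 unit of zero. For the other genes the interval reaches beyond a 2-fold difference in response. Among the 5687 genes (22.9%) called higher under restriction on the average of both kinds of offspring, the median response was 0.56 in control and 0.46 in undernourished offspring, and it was larger in control offspring for 67.3%. Among the 4995 genes (20.1%) called lower, the median sizes were 0.86 and 0.68, and 63.9% were larger in control offspring. Without genes of the brain, skin, liver and nerve lists and without probes that were dim on any array, the shares were 69.1% of 4920 and 58.2% of 3836. Both median sizes of control offspring rest on the same 4 control AL arrays, and the part of other tissues in them was not tested.

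Sptlc3 stood at -4.99, -4.92, -5.65 and -5.79 in control AL, in log2 units relative to the array's 75th percentile. The control CR arrays were at -6.32, -6.20, -6.14 and -5.99. The undernourished AL arrays were at -7.72, -7.69, -7.56 and -7.51. The undernourished CR arrays were at -5.86, -6.18, -6.48 and -5.61, so that undernourished AL lay below every other array and the CR groups overlapped. The response to restriction was -0.82 ± 0.21 (standard error) in control and 1.59 ± 0.21 in undernourished offspring, and the interaction was 2.41 ± 0.30 (95% interval 1.77 to 3.04, limma adjusted p = 0.022).

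That size rests on weak signals. Sptlc3 was well above background on 3 control AL, 4 control CR and 3 undernourished CR arrays, and on 0 of the 4 undernourished AL arrays. For undernourished AL a bound was set in place of the measured level, and control AL was 1.11-fold higher than it. The bound is the array's lowest signal among probes well above background, or the measured level where that is higher. It is no strict limit, since a probe can exceed that lowest signal without being well above background. Sptlc3 exceeded it on every control AL array but was well above background on only 3. The adjusted p of 0.000558 in limma belongs to the measured maternal difference within AL (-2.28), not to this bound. With undernourished AL set to that bound the interaction is 0.28. Under normexp background correction of median spot signals the value was -0.15, and the cause of the turned sign was not tested. In the authors' deposited log2 values the interaction was 0.45 (adjusted p = 0.504 in limma). The call was also lost without 10 of the 16 arrays in turn (adjusted p = 0.0521 to 0.0945) and with both tissue indices (1.97 ± 0.27, adjusted p = 0.173). Its highest levels were on control AL replicates 1 and 2, which also had the most summed skin markers. Without the 3 control AL arrays with raised skin markers, which leaves only replicate 4 of that group, the value was 1.95. The part of skin transcripts in its interaction was not tested. The other subunits of the enzyme had interactions of -0.21 ± 0.18 for Sptlc1 and -0.04 ± 0.13 for Sptlc2, genes chosen for their shared function after the Sptlc3 value was seen.

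**Figure D3:**
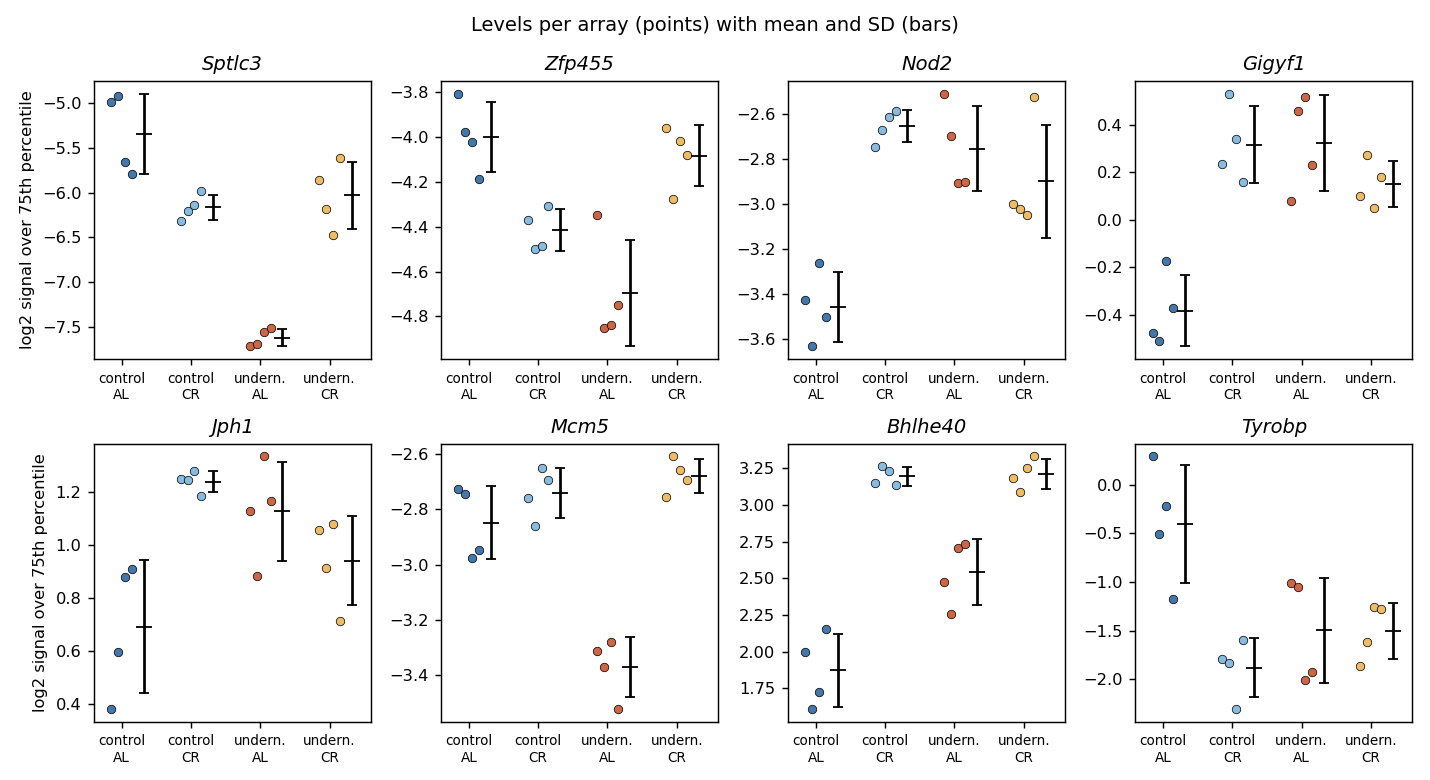
Level of 8 genes on each array (log2 signal over the array's 75th percentile), by group, with group mean and SD (n = 4 arrays). Sptlc3 was lowest on the undernourished AL arrays (-7.72 to -7.51), and Nod2 and Gigyf1 were lowest on the control AL arrays.

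As measured, restriction responses were called in opposite directions for Sptlc3 and for 3 other genes with a symbol, but with undernourished AL at its bound an upward response in undernourished offspring is not established for Sptlc3 or Tmem150c. Zfp455, a zinc finger protein, was well above background on all 16 arrays. Its levels were -3.81, -3.98, -4.02 and -4.19 in control AL and -4.37, -4.50, -4.49 and -4.31 in control CR. In the offspring of undernourished dams they were -4.35, -4.85, -4.84 and -4.75 on AL and -3.96, -4.28, -4.02 and -4.08 on CR. Zfp455 was thus lower on CR than on AL in control offspring, without overlap (response -0.42 ± 0.13, adjusted p = 0.0241 in limma). In undernourished offspring it was higher on CR by 0.61 ± 0.13, also without overlap (adjusted p = 0.00515 in limma). The interaction, 1.03 ± 0.18, did not pass (adjusted p = 0.289). The maternal difference was -0.70 and -0.69 on the AL slides and 0.32 and 0.35 on the CR slides. The interaction was 0.92 with both tissue indices and -0.07 after normexp correction.

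Gjb5, a connexin of epidermis, was measured at -4.08, -2.89, -3.72 and -4.96 in control AL and at -5.29 to -4.87 in control CR. It was not well above background in undernourished AL and stood at -5.36 to -4.39 in undernourished CR. Its interaction was 2.41 ± 0.47 as measured (adjusted p = 0.491 in limma) and 1.80 with undernourished AL at its bound. Tmem150c, a membrane protein tied to mechanosensing, had an interaction of 1.74 ± 0.37 (adjusted p = 0.491 in limma). With undernourished AL at its bound the Tmem150c interaction was -0.08, so these signals do not fix its sign. Hpgds, a prostaglandin D synthase of immune cells, and Scel, sciellin of the cornified envelope of skin, had interactions of 3.02 ± 0.61 and 2.24 ± 0.47 on signals that were likewise not well above background in undernourished AL, nor for Hpgds in control CR. All 4 had their highest group mean in control AL, the group with raised skin markers, whose part in these values was not tested. Without control AL replicate 4, the control AL array with the fewest skin transcripts, limma called 83 genes higher and 8 lower, among them Gjb5 (2.76), Scel (2.60), Hpgds (3.47), Perp (3.09) and Zfp455 (1.09).

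Of genes with a lower response after maternal undernutrition, none passed. Krt76, a keratin of oral epithelium, had the smallest p, with -1.84 ± 0.29 (adjusted p = 0.172), and was well above background on no AL array. Nod2, an intracellular sensor of bacterial cell walls, was measured on all arrays. In control AL it stood at -3.43, -3.63, -3.26 and -3.50 and in control CR at -2.75, -2.67, -2.61 and -2.58. In undernourished AL it stood at -2.51, -2.70, -2.91 and -2.90 and in undernourished CR at -2.999, -3.02, -3.05 and -2.53. Control AL was below all other arrays, and the rest overlapped. The response was 0.80 ± 0.14 in control (adjusted p = 0.000664 in limma) and -0.15 ± 0.14 in undernourished offspring, with an interaction of -0.95 ± 0.19 (95% interval -1.36 to -0.53, adjusted p = 0.491).

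Control AL was also lowest for Gigyf1, a binding partner of the insulin receptor adaptor Grb10. It was at -0.48, -0.51, -0.18 and -0.37 in control AL, from 0.16 to 0.53 in control CR, from 0.08 to 0.52 in undernourished AL and from 0.05 to 0.27 in undernourished CR. Control AL did not overlap with any other group, and the interaction was -0.87 ± 0.18 (interval -1.25 to -0.49). Other Gigyf1 probes gave -1.18 ± 0.32 and -0.39 ± 0.17. Dll1, a Notch ligand, had an interaction of -0.98 ± 0.22 and the histone methyltransferase Setdb1 one of -0.86 ± 0.21. Both were called higher under restriction in control offspring (0.93 and 0.99), with responses of -0.05 and 0.13 in undernourished offspring. Midn, which guides proteins to the proteasome, differed in pattern: its response was -0.27 ± 0.14 in control offspring and -1.07 ± 0.14, called, in undernourished offspring (interaction -0.80 ± 0.20). The adjusted p of these 4 interactions was 0.491 or 0.493 in limma. In the fit with both tissue indices they were -0.76, -0.84, -0.85 and -0.66, and without control AL replicates 1 and 2 they were -0.76, -0.85, -0.81 and -0.64.

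From the fit with both tissue indices 20 genes were taken, 10 in each direction with the smallest p, among them Zfp455, Nod2 and Gigyf1. The others are described with no test, since that p chose them. Among those with a higher response, Acer3, an alkaline ceramidase, had an interaction of 0.52 ± 0.15 without the indices and 0.62 ± 0.17 with them, but of 0.24 ± 0.15 on a second probe without them. Its levels were -1.57, -1.80, -1.54 and -1.56 in control AL and -1.93 to -1.71 in control CR. They were -1.995 to -1.74 in undernourished AL and -1.69 to -1.47 in undernourished CR, so that the responses, neither of them called, were -0.25 and 0.28. Gca, the calcium-binding protein grancalcin, had responses of 0.40 in control and 1.27 in undernourished offspring, an interaction of 0.87 ± 0.21 against 0.31 ± 0.20 on a second probe. Among those with a lower response, Msrb3, a methionine sulfoxide reductase, had an interaction of -0.99 ± 0.25 (-1.20 ± 0.28 and -0.36 ± 0.22 on other probes), the adaptor Bcar1 of -0.53 ± 0.14 and Kcnj12, an inward rectifier potassium channel of muscle, of -0.71 ± 0.25. The maternal difference had 1 sign on both AL slides and the other sign on both CR slides for 61 of the 96 genes named, most of which were chosen for their interaction. Over all genes tested this held for 14.5%, and for 7 of the 20 responsive genes described next.

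The precision of the interaction was also read for 20 responsive genes, 10 per direction, chosen after the values were seen by the smallest p of the average response among pathway list members. That choice favours responses of the same sign in both kinds of offspring. Etv5, a transcription factor of the ETS family, had a response of 1.53 ± 0.14 in control and 1.42 ± 0.14 in undernourished offspring, with an interaction interval of -0.54 to 0.32. Mvk, mevalonate kinase of cholesterol synthesis, had responses of 0.73 and 0.64 (interval -0.42 to 0.23). For these genes a difference above 1.5-fold lies outside the interval. G0s2, an inhibitor of the lipase ATGL, had responses of 3.28 and 4.16. Its interaction of 0.88 ± 0.71 (interval -0.63 to 2.40) is too imprecise to separate a near equal response from one several times larger, since control CR replicates 1 and 2 stood at 3.30 and 3.13 but replicates 3 and 4 at 0.83 and 1.45.

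**Figure D4:**
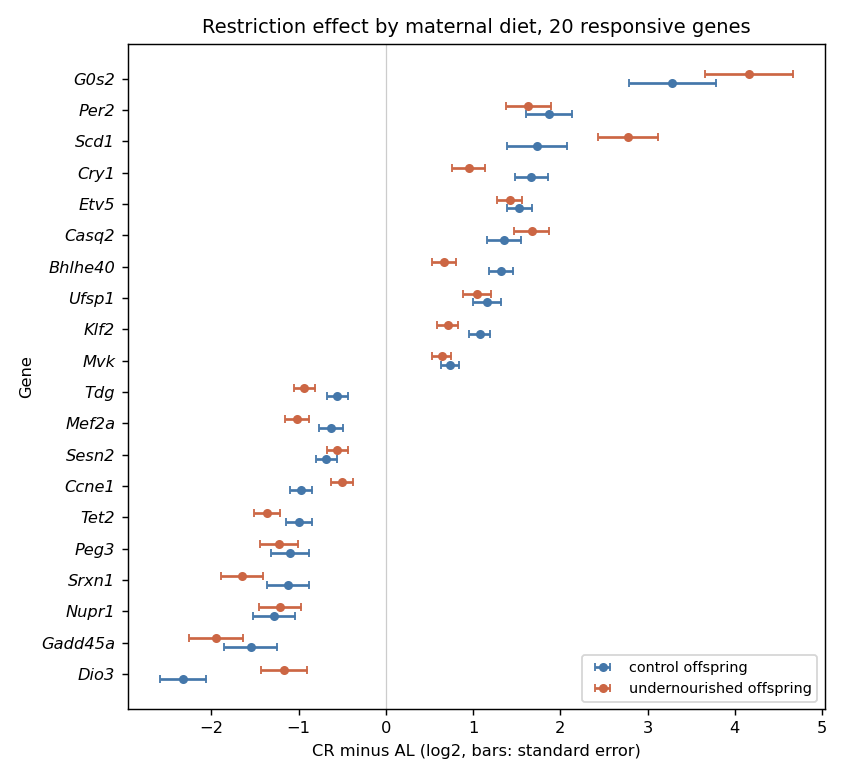
Difference of CR minus AL (log2) with its standard error in control and in undernourished offspring for the 20 genes with the most reliable average response among pathway list members. The choice by the average response favours equal signs. The responses run from Dio3 at -2.33 and -1.17 to G0s2 at 3.28 and 4.16.

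Circadian clock repressors, which close the feedback loop of the clock by shutting off the activators CLOCK and BMAL1, had a median response of 0.92 in control and 0.63 in undernourished offspring. Limma called 8 of 10 higher in control offspring (background 17.2%) and 6 of 10 in undernourished offspring (background 10.4%). For the interaction 0 of 10 were called, and 4 had an unadjusted p under 0.05, all lower (background 4.28%). With both tissue indices the background of such calls was 1.86% lower and 2.51% higher. The median interaction was -0.49, against -0.06 over all genes tested, and -0.39 with both tissue indices, where 1 of 10 had an unadjusted p under 0.05. Leaving out 1 array at a time gave medians from -0.57 to -0.32.

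Bhlhe40, a repressor that competes for the clock's E-box, was at 1.999, 1.61, 1.73 and 2.16 in control AL and at 3.13 to 3.27 in control CR. It was at 2.48, 2.26, 2.71 and 2.73 in undernourished AL and at 3.09 to 3.33 in undernourished CR. The CR groups overlapped, while undernourished AL lay wholly between control AL and both CR groups. The response was 1.32 ± 0.14 in control and 0.67 ± 0.14 in undernourished offspring, both called, and the interaction was -0.65 ± 0.19 (interval -1.07 to -0.24, limma adjusted p = 0.493). Per3 had responses of 2.10 ± 0.30 and 0.89 ± 0.30 and Per1 of 0.93 ± 0.24 and -0.01 ± 0.24. Cry1 had responses of 1.67 and 0.95, but a second Cry1 probe had an interaction of 0.02 ± 0.23 against -0.72 ± 0.27 for the probe used. Per2, with responses of 1.87 and 1.63, had an interaction of -0.24 ± 0.37.

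The activators act through the E-box, CACGTG, which was searched in the 250 bases before the start of the repressor genes in the RefSeq promoter table (GRCm38.p6). Since the motif reads the same on both strands, 1 search covers both. Of the 10 genes, 8 were in the table, with 9 promoters. The motif was in 4 of these 9, against 6.02% of all 32851 promoters of that length, and a second promoter of Per1 did not hold it. The stretches around it are shown for the list that stands lowest among the pathway lists by its median interaction, with the motif in capitals and 20 bases on each side. A match describes the sequence only.
Per1, chr11:69098763-69098808, plus strand: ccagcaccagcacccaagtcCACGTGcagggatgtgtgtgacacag
Cry1, chr10:85185089-85185134, minus strand: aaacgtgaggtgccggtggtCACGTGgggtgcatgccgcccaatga
Bhlhe41, chr6:145865548-145865593, minus strand: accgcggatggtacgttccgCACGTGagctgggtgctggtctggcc
Ciart, chr3:95882247-95882364, minus strand: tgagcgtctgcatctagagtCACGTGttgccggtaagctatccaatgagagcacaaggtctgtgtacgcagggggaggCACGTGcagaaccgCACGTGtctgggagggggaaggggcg
The motif began 166 bases before the start in Per1, 60 in Cry1, 153 in Bhlhe41 and 116, 58 and 44 in Ciart. Their interactions were -0.94 ± 0.34, -0.72 ± 0.27, -0.22 ± 0.28 and -0.64 ± 0.66. The promoters of Per3, Cry2, Nr1d1 and Nr1d2 did not hold the motif. The interactions of these genes were -1.21 ± 0.43, -0.34 ± 0.26, 0.22 ± 0.50 and -0.04 ± 0.21. A relation between motif and interaction was not tested. Bhlhe41 and Ciart are further repressors of the clock.

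Genes of fatty acid synthesis had a median interaction above zero. For this pathway, which builds fatty acids from acetyl-CoA, 0 of 18 measured genes were called, 4 had a higher response at an unadjusted p under 0.05 (background 5.38%) and 0 a lower one. The median interaction was 0.32, with 13 values above zero and 5 below. It was 0.20 with both tissue indices, where 1 of 18 had an unadjusted p under 0.05. Fasn, the fatty acid synthase, was at 3.23, 3.10, 2.70 and 2.15 in control AL and at 4.48, 4.21, 3.78 and 4.02 in control CR. It was at 2.71, 2.29, 2.62 and 1.54 in undernourished AL and at 5.15, 4.42, 4.47 and 4.24 in undernourished CR. It was higher on CR than on AL without overlap in both, by 1.33 ± 0.29 and 2.28 ± 0.29 (adjusted p = 0.0032 and 0.000216 in limma). The interaction was 0.95 ± 0.41 (interval 0.07 to 1.83, limma adjusted p = 0.512). With both tissue indices it was 0.50 ± 0.43. A second Fasn probe gave 0.97 ± 0.47.

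Scd1, the stearoyl-CoA desaturase, had responses of 1.73 ± 0.34 and 2.77 ± 0.34 and an interaction of 1.04 ± 0.48 (interval 0.01 to 2.07, limma adjusted p = 0.512). With both tissue indices the Scd1 interaction was 0.77 ± 0.58. Scd2, a desaturase also abundant in brain, had an interaction of 1.88 ± 0.63, with levels of 3.81 and 3.53 on the control AL arrays with the most brain transcripts against 1.95 and 1.74 on the other control AL arrays; with both tissue indices it was 0.86 ± 0.46. Srebf1, the transcription factor of this pathway, had responses of 1.13 in both and an interaction of 0.00 ± 0.42. Of 20 cholesterol genes, 3 had a higher response at an unadjusted p under 0.05 (background 5.38%) and 0 a lower one, with a median of 0.26. That median was 0.07 with both tissue indices, where 0 of the 20 had an unadjusted p under 0.05. Msmo1, a sterol methyl oxidase, stood at 2.59 and 2.67 on those same control AL arrays and at 1.34 and 1.25 on the remaining pair. Its interaction was 1.14 ± 0.40, and 0.37 ± 0.21 with the indices.

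Genes of lipid use and of protein breakdown had medians near that of all genes. The last of these lists had a positive median in the authors' values and after quantile normalization and normexp correction, and fatty acid oxidation after normexp correction, so no direction is given. Lipid droplet and lipolysis genes had a median of 0.00, fatty acid oxidation of -0.09, fasting and PPAR targets of -0.05, and FoxO and atrophy genes of -0.11. In these 4 lists 0 of 18, 22, 20 and 24 genes had an unadjusted p under 0.05 in limma (background 9.65%), and 0 were called. Fbxo32 and Trim63, ubiquitin ligases of muscle atrophy, had responses of -2.16 and -1.78 in control and -2.23 and -1.86 in undernourished offspring, all called. The intervals of their interactions ran from -1.72 to 1.59 and from -1.40 to 1.25. Both ligases, Srebf1 and Igf2 were named after their values were seen.

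Calcium handling genes of muscle had a median interaction of -0.28, with 0 of 18 called and 3 lower at an unadjusted p under 0.05 (background 4.28%). The median was -0.16 with both tissue indices, -0.12 in the authors' values and -0.10 after normexp correction. After normexp correction the median of all genes was lower, at -0.20. Ryr1, the calcium release channel of the sarcoplasmic reticulum, was at 7.21, 7.74, 7.58 and 7.76 in control AL and at 8.10, 7.99, 8.07 and 8.14 in control CR. It was at 7.96, 8.002, 7.97 and 8.11 in undernourished AL and at 7.95, 7.99, 7.91 and 7.28 in undernourished CR. Control AL lay below control CR and undernourished AL, and undernourished CR held 1 low array, replicate 4. The interaction was -0.73 ± 0.22 (limma adjusted p = 0.493), and -0.69 ± 0.20 on a second probe. Jph1, which holds the reticulum against the surface tubules, had responses of 0.55 ± 0.14 and -0.19 ± 0.14 and an interaction of -0.73 ± 0.19 (interval -1.15 to -0.32). With both tissue indices Ryr1 and Jph1 stood at -0.69 ± 0.24 and -0.54 ± 0.19. Casq2, the slow fibre calcium store, responded with 1.36 and 1.67.

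Developmental genes of muscle had a median of -0.25, with 2 of 20 lower at an unadjusted p under 0.05 (background 4.28%). This median was -0.19 with both tissue indices and -0.16 in the authors' values. After normexp correction it was -0.22, close to the -0.20 of all genes. Among the genes of this list Myog, the myogenic factor of differentiation, ranged from 0.73 to 2.30 in control AL and 1.49 to 2.45 in control CR. Myog ranged from 1.77 to 3.42 in undernourished AL and 0.86 to 1.80 in undernourished CR. Its interaction was -1.50 ± 0.54 (interval -2.66 to -0.34). Immediate early genes, induced within minutes of a stimulus, had a median of -0.45 (and -0.30 with both tissue indices). Of these, 4 of 22 were lower at an unadjusted p under 0.05 (background 4.28%). Fos, a subunit of the AP-1 transcription factor, was at 0.73 and 0.72 on the undernourished AL arrays of slide 2 and between -2.62 and -0.50 on every other array. Its interaction was -1.70 ± 0.66. Klf4, a Kruppel-like transcription factor, had responses of 0.82 ± 0.20 and -0.03 ± 0.20.

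For the cell cycle list 5 of 21 genes had a higher response at an unadjusted p under 0.05 (background 5.38%) and 0 a lower one. The median was 0.05, and 0.32 with both tissue indices, but -0.04 after normexp correction and -0.06 after median scaling. Mcm5, a subunit of the helicase that opens DNA for replication, was at -2.73, -2.74, -2.98 and -2.95 in control AL and at -2.76, -2.86, -2.65 and -2.69 in control CR. It was at -3.31, -3.37, -3.28 and -3.52 in undernourished AL, below all other arrays, and at -2.75, -2.61, -2.66 and -2.69 in undernourished CR. The interaction was 0.59 ± 0.14 (interval 0.28 to 0.89, limma adjusted p = 0.493) and was 0.07 under normexp correction. Birc5, an inhibitor of apoptosis made in mitosis, had responses of -1.52 ± 0.30 and -0.27 ± 0.30. The helicase subunits Mcm2, Mcm3, Mcm4, Mcm6 and Mcm7 had interactions between -0.18 and 0.02, given for the whole complex after the Mcm5 value was seen.

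In the insulin and IGF list 0 of 23 genes were called, 2 were lower at an unadjusted p under 0.05 (background 4.28%) and 0 higher, with a median of -0.14. That median was 0.002 with both tissue indices, -0.002 without control AL replicates 1 and 2 and -0.03 after normexp correction. Irs1, the insulin receptor substrate, had responses of 0.70 ± 0.23 and -0.14 ± 0.23 and an interaction of -0.84 ± 0.33 (interval -1.54 to -0.14). Igf2r, the receptor that clears IGF2, had an interaction of -0.63 ± 0.25, and of -0.23 ± 0.20 with both tissue indices. Among 16 imprinted growth genes 2 were higher and 2 lower at an unadjusted p under 0.05 (background 5.38% and 4.28%). Their median of 0.13 turned to -0.02 after normexp correction. Dio3, the deiodinase that inactivates thyroid hormone, was at -2.09, -2.33, -2.67 and -2.73 in control AL and at -3.45, -3.14, -2.81 and -4.02 in undernourished AL. It was lower on CR than on AL in both, with responses of -2.33 ± 0.27 and -1.17 ± 0.27 (interaction 1.16 ± 0.38, adjusted p = 0.493 in limma). Igf2 itself had an interaction of 0.06 ± 0.22. For chromatin and DNA methylation genes 3 of 21 were lower at an unadjusted p under 0.05 (background 4.28%) and 0 higher, with a median of -0.24. With both tissue indices the median was -0.09, and 0 of 21 had an unadjusted p under 0.05 in limma.

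Lists of large complexes had medians close to zero. The median was -0.12 for respiratory complex I, -0.12 for complexes II to V, -0.10 for the mitochondrial ribosome, 0.00 for the cytosolic ribosome and -0.20 for the proteasome. Of 36, 39, 55, 65 and 35 genes, 0, 1, 0, 0 and 1 had an unadjusted p under 0.05 in limma (background 9.65%), and 0 were called. The first 3 medians turned positive in the authors' values, after quantile normalization and after normexp correction, and that of the proteasome was 0.016 with both tissue indices, so no direction is given for any of them. Normexp correction and median scaling also moved the median of all genes, from -0.06 to -0.20 and -0.17.

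**Figure D5:**
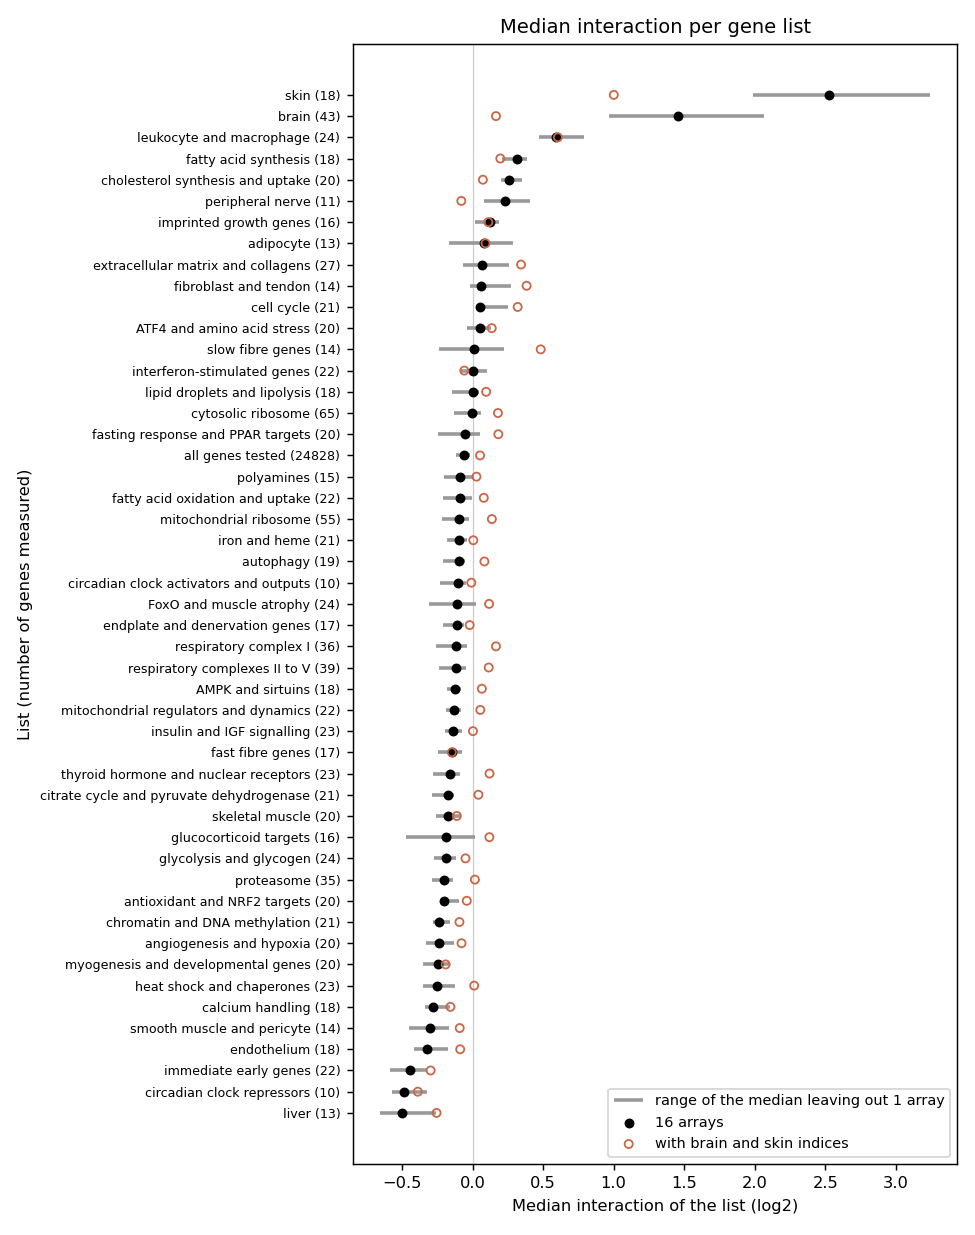
Median interaction (log2) of each list and of all genes tested, with the number of genes measured: filled points for the 16 arrays, open points with the brain and skin indices as covariates, and bars for the range over fits that leave out 1 array. Skin (2.53) and brain (1.45) markers had the highest medians, and most pathway lists lie within 0.3 of zero.

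Of markers for other cells of muscle, those of leukocytes and macrophages had a higher response after maternal undernutrition in 7 of 24 at an unadjusted p under 0.05 (background 5.38%) and a lower one in 0. The median interaction was 0.59, and 0.60 with both tissue indices, but 0.41 in the authors' values and 0.23 after normexp correction. Limma called 14 of 24 lower under restriction in control offspring (background 15.1%) and 2 in undernourished offspring (background 9.86%). In pooled tissue RNA, fewer cells of a type and less RNA per cell cannot be told apart. Tyrobp, a signalling adaptor of myeloid cells, was at 0.29, -0.51, -0.22 and -1.17 in control AL, from -2.31 to -1.59 in control CR, from -2.005 to -1.01 in undernourished AL and from -1.86 to -1.26 in undernourished CR. The last 3 groups overlapped, and control AL extended above all of them. Its interaction was 1.47 ± 0.43 (limma adjusted p = 0.493). Summed markers of this list were at 11.7 to 18.8 units in control AL, 6.54 to 9.47 in control CR, 8.39 to 17.6 in undernourished AL and 6.91 to 16.2 in undernourished CR.

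Endothelial markers had an interaction below zero for 18 of 18, against 56.8% of all genes tested, with 5 lower at an unadjusted p under 0.05 (background 4.28%) and a median of -0.32. With both tissue indices the median was -0.09 and 0 of 18 had an unadjusted p under 0.05. After normexp correction the endothelial median was -0.22, close to the -0.20 of all genes. Tek, an angiopoietin receptor, had an interaction of -0.68 ± 0.22 and Robo4, a guidance receptor of vessels, of -0.57 ± 0.19. Smooth muscle and pericyte markers had a median of -0.30, with 3 of 14 lower (background 4.28%), led by Myh11, the smooth muscle myosin (-0.93 ± 0.29). The median was -0.09 with both tissue indices, where 1 of 14 was lower. After normexp correction it was -0.12, against -0.20 over all genes. Adipocyte markers had 1 of 13 higher (background 5.38%) and a median of 0.08, and their summed signal overlapped in all groups, at 244.6 to 483.6 units.

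Skin and brain markers had the highest medians of all lists. For skin, 12 of 18 measured markers had a higher response at an unadjusted p under 0.05 (background 5.38%), and the median interaction was 2.53. The markers were lower on CR than on AL in control offspring (14 of 18 called lower, background 15.1%), and 0 were called in undernourished offspring. Perp, a protein of desmosomes, was at 1.73, 2.75, 1.64 and -0.72 in control AL and between -1.19 and -0.11 on the other 12 arrays. For brain, 15 of 43 were higher and 1 lower (background 5.38% and 4.28%), with a median of 1.45. Limma called 38 and 28 of 43 lower under restriction in control and undernourished offspring (background 15.1% and 9.86%). Ncan, a proteoglycan of brain, was at 3.10, 2.96, 0.69 and -0.10 in control AL, at 0.86, 0.17, -0.04 and -1.58 in undernourished AL and well above background in no control CR array. With both indices, which are built from these markers, the medians were 1.001 and 0.17.

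Of the 78 genes named for their interaction, 0 changed sign in the fit with both tissue indices, without control AL replicates 1 and 2, or without the 3 control AL arrays with raised skin markers. The median of their values relative to the full fit was 81.9%, 82.3% and 74.5%. They became smaller by over 1.5 times in 25, 21 and 33 of the 78. These genes were chosen from the same arrays, so that a shared sign is a description. Of them, 20 were chosen by p and direction in the fit with both tissue indices, which favours large values there. The last of these fits keeps only replicate 4 of control AL.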

How the data were processed

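Total RNA of 16 pools was labelled with Cy3 and hybridised to 1-colour Agilent arrays. Per the file headers, the deposited intensity of each spot is the processed signal of Agilent Feature Extraction (version 10.5.1.1 in the submitters' processing notes), not normalized between arrays. From it, log2 values minus each array's 75th percentile (387.4 to 829) were computed over the 43379 non-control spots, leaving out outlier spots (53 to 176 per array). No spot was saturated (0), and 66.4% to 78.5% were well above background. A probe was kept if 4 or more arrays held it well above background, and the probe of highest mean stood for a gene: 24828 genes, 15019 of them with a symbol in the files. The authors' deposited log2 table, an alternative, has every probe's median at 0, column medians from -0.10 to 0.04 and differences between arrays 0.78 to 0.83 times as large as those of the scanner values. The sources used here do not give how it was normalized.

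Tests were made with limma 3.58.1 (R 4.3.3, lmFit and eBayes, two-sided) on a model of 4 group means, with Benjamini-Hochberg adjustment over all genes, calls at an adjusted p under 0.05 and 95% intervals. Genes were named by rule: called genes or, where fewer than 6 passed in a direction, the 6 with the smallest p; 10 per direction from the fit with brain and skin indices; up to 2 per list with an unadjusted p under 0.05; up to 10 called in opposite directions; and the 20 responsive genes. The tissue indices are linear means of marker signals scaled to the highest array. The members and the 48 lists were chosen with earlier results of these data known. Normexp used median spot signals with an offset of 50, since mean signals were not used here. Results for some genes are not reported here. The code was tested on simulated data. The number of arrays limits the precision.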

Additional observations from a re-analysis of the deposited data

Results flagged for a closer look

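The interaction of Sptlc3, 2.41 on the log2 scale, passed limma's test of the difference between both restriction responses, with the limits of weak signal given above.

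Single arrays stood apart from the other 3 of their group in 19 of the 380 groups of 4 arrays examined; chance flags about 1 in 20. Undernourished CR replicate 4 was such an array for 6 genes: Nod2 at -2.53, Phka1 at 1.55, Hspb8 at 4.65, Ryr1 at 7.28, Birc5 at -2.79 and Oaz2 at 4.04. In the same group Kcnj12 stood at 2.75 in replicate 2 and Myh11 at 0.86 in replicate 3. In control AL, Msrb3 was at 0.67 and Gnas at 3.06 in replicate 1, Acer3 at -1.80 in replicate 2, Tek at -0.12 in replicate 3 and Hpgds at -6.11 in replicate 4. Control CR replicate 4 stood apart for Cytl1 at -0.26 and Setdb1 at -0.31. In undernourished AL, Psat1 was at -1.69 in replicate 1, Lgals7 at -4.69 in replicate 3, and Slc7a11 at -7.47 and Hspb8 at 5.47 in replicate 4.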

How the results depend on the processing

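The count of called interactions was 1 in the fit reported and 1 after quantile normalization, median scaling, with no filter on dim probes and with the mean over a gene's probes. It was 0 after normexp correction (198 genes at an unadjusted p under 0.05 in limma), 0 in the authors' values (2428), 0 among probes well above background on all 16 arrays (1949), 0 with the brain index (1007) and 0 with both tissue indices (1085). It was 12 with slide as a block and 2 with array weights. Leaving out 1 array gave 0 to 91 calls: 91 without control AL replicate 4, 2 without control CR replicate 4, undernourished AL replicate 2 or undernourished CR replicate 4, 1 without control AL replicate 3 or undernourished CR replicate 3, and 0 without any other array. Of the alternatives chosen after seeing the data, slide with both indices gave 2 calls, leaving out control AL replicates 1 and 2 gave 0 (1038), and leaving out the arrays with raised summed skin markers and log2 indices gave 1 each. The planned exclusion by index over 0.1 was not run, since it left a group with no array.

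With the replicate block, the count was 0 (2689 at an unadjusted p under 0.05). Arrays of 1 number on different slides correlated at -0.22 to 0.14 in their deviations from group means, with 1 of 16 pairs over 0.1. No pairing by number across slides was seen in these correlations, but low correlations cannot exclude one. On the same slide 5 of 8 pairs of 1 number were over 0.1 (median 0.12, highest 0.47). So were 6 of 8 pairs of unlike number (median 0.15, highest 0.23). A pairing by number within slides was not tested.

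After normexp correction the sign turned for Sptlc3 (-0.15), Zfp455 (-0.068), Hpgds (-0.11), Scel (-0.13), Tmem150c (-0.30), Olfr926 (-0.24), Creb3l1 (-0.14) and Olfr114 (-0.22), and the cause was not tested. Olfr114 also turned after quantile normalization (-0.052), median scaling (-0.049) and array weights (-0.22), and ranged from -0.22 to 0.27 over fits without 1 array. Creb3l1 ranged from -0.033 to 0.53 over those fits. For the 78 genes named for their interaction, 14 of 2486 values under the alternatives reversed, 18 lost and 9 gained a call, and the other 2445 kept direction and side of the threshold, which for all but Sptlc3 means not called. Of 576 values of the 18 other responsive genes, 22 changed sign.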
